A study of Homo sapiens with 12 samples.

Results

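Long intergenic noncoding RNAs that carry a numbered LINC symbol were examined in U251 cells, a human glioblastoma line, after knockdown of *PD-L1* with and without interferon gamma (IFNγ). The RNAs were chosen by their level. A gene was included when its symbol was LINC followed by 5 digits and its mean over the 12 libraries was at least 1 CPM, the read count scaled to the depth of the library. This rule kept 155 of the 2105 LINC genes in the table, or 7.36%, and the whole table held 45416 genes, of which 14278 reached the same mean. Of the 2105 LINC genes, 1274 had a read in at least 1 library and 831 had none. Because the mean was taken over all conditions, the levels below describe the selection and are not tested. On the excluded side of the threshold lay *LINC02541*, with a mean of 0.998 CPM, and *LINC02606*, with 0.978 CPM. The lowest included RNAs were *LINC00649*, with 1.02 CPM, and *LINC00664*, also with 1.02 CPM.

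The cells had been transfected with a control siRNA (siNC) or with either of 2 siRNAs against *PD-L1* (siPDL1-1 and siPDL1-2). They were then left unstimulated or given IFNγ at 100 U/ml for 24 h, starting 48 h after transfection. Each of the 6 conditions had 2 libraries, and every library came from the same line. By the study's methods the libraries came from 2 independent experiments, but the labels do not tie the replicate numbers to them. The p-values rest on the spread between the 2 libraries of a condition, pooled over all conditions of a fit and adjusted with that of other genes. Library depth ranged from 17101069 to 55657393 gene reads, and 1 read was worth 0.0187 to 0.0586 CPM. At this depth 151 of the 155 RNAs had at least 10 reads in every library.

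Long noncoding RNAs are transcripts without a recognised protein product, usually capped, spliced and polyadenylated like messenger RNAs but made in fewer copies and with narrower tissue patterns. A LINC symbol is a placeholder name for one that lies between protein-coding genes and has no other established name, so the group shares a naming rule and not a pathway. In gliomas several of them are known for high or tissue-restricted expression. IFNγ signals through JAK kinases and induces *PD-L1* together with antigen-presentation genes and chemokines.

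The knockdown target was read first. *CD274*, the gene that encodes PD-L1, was at 4.60 and 4.91 CPM in unstimulated siNC cells and at 71.2 and 76.0 CPM after IFNγ. In siPDL1-1 cells it was at 2.67 and 2.73 CPM, rising to 60.9 and 66.7 CPM, and in siPDL1-2 cells at 3.57 and 3.45 CPM, rising to 37.5 and 35.04 CPM. After IFNγ, *CD274* was therefore 2.03-fold lower with siPDL1-2 than with siNC (limma adjusted p = 2.79e-05), while siPDL1-1 gave a 1.15-fold lower level that was not called (limma adjusted p = 0.0604). Without IFNγ it was 1.76-fold lower with siPDL1-1 (limma adjusted p = 1.76e-05) and 1.36-fold lower with siPDL1-2, the latter below the fold threshold used here. Libraries of both siRNAs carry the label of a *PD-L1* knockdown, and the siPDL1-1 libraries after IFNγ are a weak example of one at the RNA level.

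The lineage of the cells was checked with markers. *VIM*, *CD44*, *SOX2*, *NES* and *EGFR*, all used as markers of glioma cells, had means of 3502, 523, 161, 156 and 125 CPM, whereas *GFAP*, the astrocyte filament, was at 4.38 CPM and *OLIG2* at 0.127 CPM. *PTPRC*, *CD3E* and *ITGAM*, which define immune cells, stayed at or below 0.176 CPM in every library. *CD68*, another immune marker, is not specific to them and ranged from 28.2 to 80.2 CPM. Among endothelial markers *VWF* was the most abundant, at 1.47 to 4.78 CPM, with *PECAM1* at or below 0.297 CPM. In RNA from whole cultures, fewer cells that express an RNA and less of it per cell cannot be told apart.

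The 155 RNAs were a low-abundance set with a few highly expressed members. Their median mean level was 3.77 CPM, against 31.9 CPM for the 12802 protein-coding genes that reached the same threshold. Per kilobase of annotated exon the medians were 0.922 and 5.61 CPM. Of the 155, 52 had a mean between 1 and 2 CPM, 43 between 2 and 5, 26 between 5 and 10, 27 between 10 and 50, and 7 were at or above 50 CPM. Together they took 0.136% to 0.168% of all CPM in a library, and the 5 most abundant took 32.6% of the members' sum.

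*LINC00461* was the most abundant, with a mean of 173 CPM and a range of 120 to 234 CPM over libraries, and it exceeded the next RNA in 9 of 12. It lies at chr5:88507546-88691057 on the minus strand (GRCh38) and is a neural RNA whose locus contains the *MIR9-2* hairpin, a source of the brain microRNA miR-9. The 2 mature products are shown, because they are the part of this transcript with a known molecular role, with the seed (bases 2 to 8) in capitals, from RefSeq (GRCh38.p14). The sequenced libraries did not measure mature microRNAs, and *MIR9-2* itself is listed at 0 reads.
hsa-miR-9-5p: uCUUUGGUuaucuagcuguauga
hsa-miR-9-3p: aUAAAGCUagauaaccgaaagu

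*LINC00205* followed, at chr21:45288050-45297806, with a mean of 123 CPM and a range of 99.3 to 148 CPM. It starts 152 bp from *POFUT2*, which codes for an O-fucosyltransferase and is transcribed the other way at a mean of 158 CPM. *LINC00205* exceeded *LINC00511*, the next in order, in 12 of 12 libraries, and their ranges did not overlap. The following RNAs cannot be ordered beyond their spread. *LINC00511*, a long multi-exon RNA on chromosome 17 that has been studied as tumour-promoting, had a mean of 66.2 CPM, *LINC00623* on chromosome 1 had 65.6 CPM, and *LINC00667* on chromosome 18 had 59.6 CPM. *LINC00511* was above *LINC00623* in 6 libraries of the 12, and so was *LINC00623* above *LINC00667*. Per kilobase of exon the order differed: *LINC00623* led with 25.2 CPM per kb, *LINC00205* had 16.2 and *LINC00461*, with 19764 bases of merged exon, had 8.76.

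**Figure D1:**
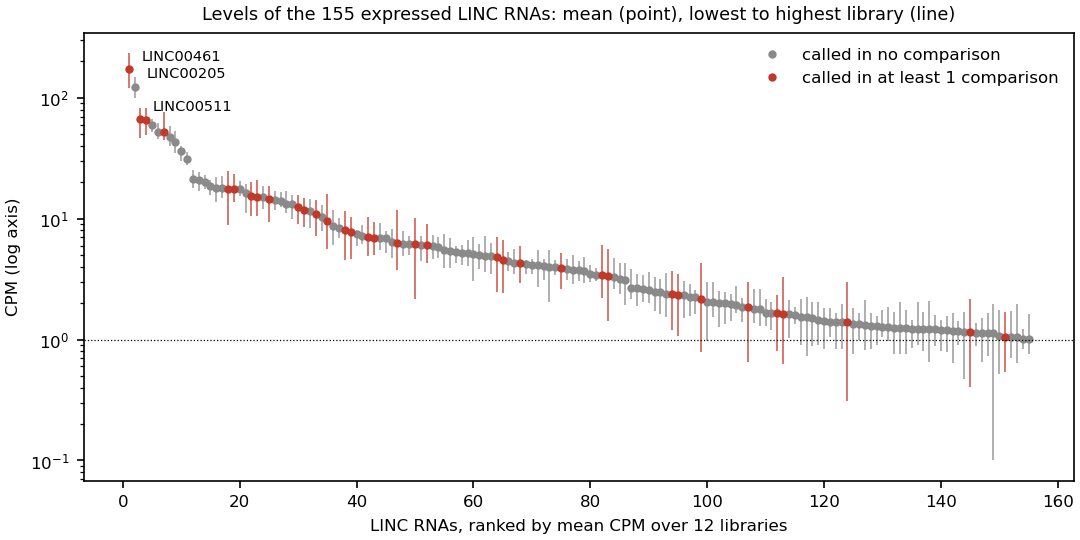
Mean CPM over 12 libraries (points, log axis) of the 155 LINC RNAs in order of level, with lines from the lowest to the highest library and the 1 CPM threshold dotted. The 35 RNAs called in at least 1 comparison (red) are spread over the whole range, from 173 CPM down to 1.05 CPM; the line of *LINC02085*, which has 0 reads in 1 library, is drawn to 0.1 CPM.

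In the genome, all 155 matched a long noncoding RNA of GENCODE version 44 at the same locus, and 11 now have another symbol there, such as *LINC01184*, renamed *SLC12A2-DT*. They had a median of 6 merged exons and 22 had a single one. Chromosome 1 held 23. The name notwithstanding, 40 overlapped another gene with a mean of at least 1 CPM, and 29 overlapped one of higher level, 25 of them a gene on the opposite strand and 6 one on the same strand. Reads were counted on both strands, so where exons overlap, as they did with a more abundant gene for 22 of the 155, the reads of the pair cannot be told apart.

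The ratio of the highest to the lowest condition mean had a median of 1.57, it was under 1.5 for 68 RNAs and at least 2 for 28, and the median ratio between the 2 libraries of a condition was 1.10. A gene was called when its limma adjusted p was under 0.01 and its fold change, on the log2(CPM + 1) scale, over 1.5. Over 10 comparisons, 35 of the 155, or 22.6%, were called at least once and 120 were called in none, against 21.5% of all genes tested and 25.5% of the 14278 genes that reached the same mean as the RNAs. The rule on the mean bears on some of these calls. Of the 155, 32 had at least 1 condition mean under 1 CPM, and 7 of them were called: *LINC00639*, *LINC01341* and *LINC02861*, each with 3 such conditions, and *LINC00052*, *LINC00944*, *LINC00973* and *LINC01484*, each with 1. *LINC00639*, *LINC01341*, *LINC02861* and *LINC00944* reached the threshold through the conditions in which they were high, so their differences are given as descriptions that are not independent of the selection. The called RNAs had a median mean level of 6.30 CPM and the others 2.91 CPM, and 5 of the 35, against 24 of the 120, overlapped a gene of higher level.

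The first comparison asked which RNAs respond to IFNγ in cells with the control siRNA. In siNC cells 10 of the 155 were called, 7 higher and 3 lower, which is 6.45%, against 8.12% of all 17982 genes tested (1200 called higher and 260 lower). With a pseudocount of 0.1 or with edgeR more were called, as given in the section on the processing. *LINC01232* had the largest rise and *LINC00639* the largest fall, and the abundant *LINC00461* and *LINC00623* were among those that rose. The median log2 fold change over the 155 was -0.05, against 0.00 over all genes. For scale, all 15 genes of a list of known IFNγ targets rose, with a median log2 fold change of 5.13. No LINC RNA changed by as much.

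*LINC01232* was at 2.15 and 2.86 CPM in unstimulated siNC cells and at 8.56 and 7.89 CPM after IFNγ, a 3.28-fold difference (log2 fold change 1.40 ± 0.12 SE, limma adjusted p = 2.44e-07). In siPDL1-1 cells it went from 3.39 and 3.06 CPM to 8.43 and 9.79 CPM, and in siPDL1-2 cells from 4.12 and 3.63 CPM to 10.2 and 9.49 CPM. The stimulated libraries were thus above all unstimulated ones with no overlap, and the difference was called with each siRNA (log2 fold changes 1.26 and 1.15, limma adjusted p = 8.02e-07 and 2.9e-06). This RNA, at chr13:99486962-99499306 on the minus strand, lies inside *TM9SF2*, a membrane protein gene on the other strand with a mean of 157 CPM, and 496 of its exonic bases are also exon of *TM9SF2*. The log2 fold changes of *TM9SF2* were 0.42, 0.37 and -0.04 in the same 3 comparisons, and none was called. Whether reads of *TM9SF2* add to the values of *LINC01232* was not tested.

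*LINC00944*, at chr12:126729787-126772519, showed the same order at a lower level. Its mean reached 1 CPM through the stimulated libraries, which averaged 2.76 CPM against 0.956 CPM for the unstimulated ones. It was at 1.18 and 1.04 CPM in unstimulated siNC cells and at 3.02 and 2.88 CPM after IFNγ (log2 fold change 0.91 ± 0.12 SE, limma adjusted p = 2.63e-05). In siPDL1-1 cells the values were 1.16 and 0.894 CPM without and 2.72 and 2.35 CPM with IFNγ, and in siPDL1-2 cells 0.647 and 0.824 CPM without and 2.81 and 2.74 CPM with it. The groups did not overlap, and the log2 fold changes of 0.80 and 1.12 were called (limma adjusted p = 9.87e-05 and 4.73e-06). *LINC00943*, which overlaps it on the opposite strand over 1926 exonic bases at a mean of 0.507 CPM, was higher by 0.69, 0.58 and 0.42, of which the first was called.

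*LINC00639* was lower with IFNγ. Its mean reached 1 CPM through the unstimulated libraries, which averaged 2.26 CPM against 0.512 CPM for the stimulated ones. In siNC cells it was at 2.15 and 2.99 CPM without and at 0.375 and 0.311 CPM with IFNγ, a 7.50-fold difference of the means (log2 fold change -1.40 ± 0.14 SE on the log2(CPM + 1) scale, limma adjusted p = 1.51e-06). The siPDL1-1 libraries were at 2.06 and 2.07 CPM against 0.851 and 0.470 CPM, and those of siPDL1-2 at 2.20 and 2.11 CPM against 0.469 and 0.595 CPM. Again no stimulated library reached an unstimulated one, and both log2 fold changes, -0.89 and -1.04, were called (limma adjusted p = 0.000149 and 5.09e-05). It spans chr14:38738155-38948273 on the minus strand and overlaps no other gene, and its lowest library held 8 reads. *SEC23A*, its nearest expressed gene and a part of the COPII vesicle coat, had log2 fold changes of 0.33, 0.22 and -0.05.

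*LINC01232*, *LINC00944* and *LINC00639* were the 3 RNAs called with all 3 siRNAs. The 3 comparisons used separate libraries, but all of these libraries entered the mean that chose the RNAs, and *LINC00944* and *LINC00639* were chosen through the state in which they were high.

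**Figure D2:**
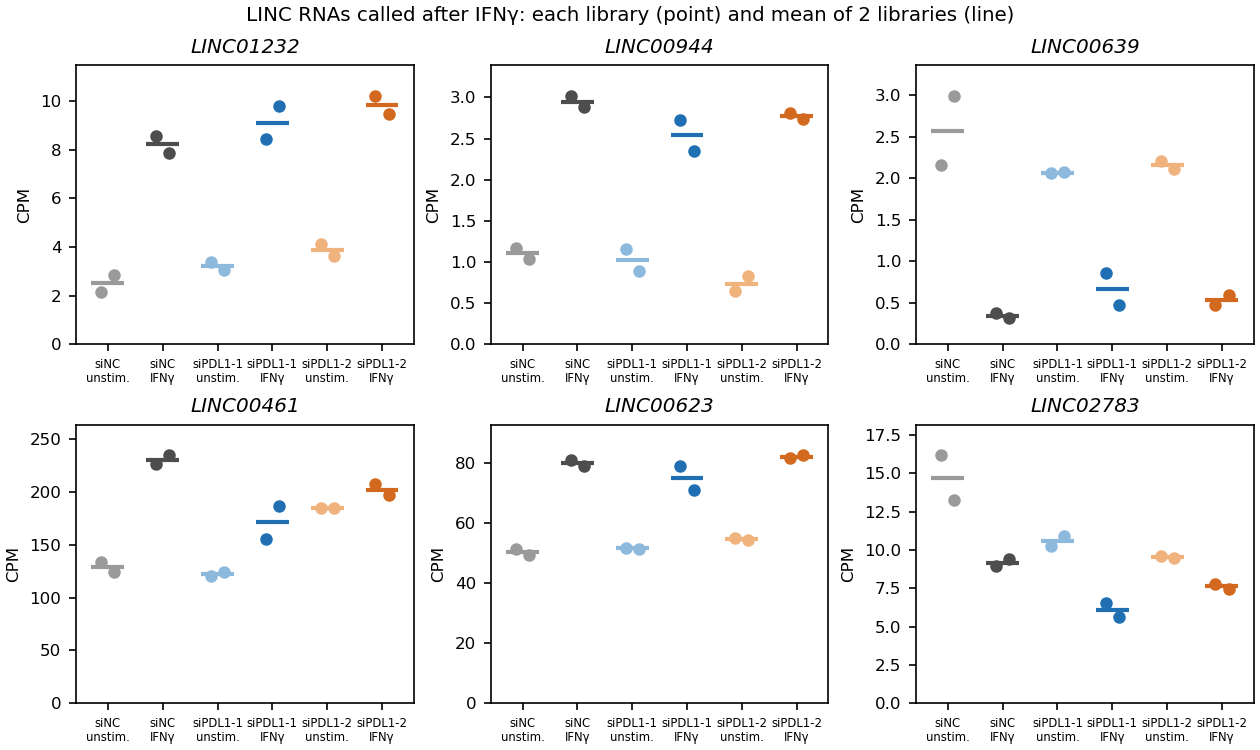
CPM of 6 LINC RNAs in each library (points), with the mean of the 2 libraries (lines), for the 6 conditions. In the upper row the stimulated libraries are separate from the unstimulated ones with every siRNA, whereas *LINC00461* rose from 133 and 124 CPM to 227 and 234 CPM with siNC but was at 185 and 184 CPM before and 207 and 197 CPM after IFNγ with siPDL1-2.

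*LINC00461* had the highest level of the RNAs that rose. In siNC cells it went from 133 and 124 CPM to 227 and 234 CPM (log2 fold change 0.84 ± 0.07 SE, limma adjusted p = 4.89e-07). With siPDL1-1 the increase, from 120 and 124 CPM to 155 and 187 CPM, was below the fold threshold (log2 fold change 0.47, limma adjusted p = 0.000115), and with siPDL1-2 it was 0.13 (limma adjusted p = 0.181). Its nearest expressed gene, *MEF2C*, a neuronal and muscle transcription factor gene 26060 bp away, had log2 fold changes of 0.88, 0.64 and -0.00 in the 3 comparisons, the first 2 of which were called.

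The other RNAs that rose in siNC cells were *LINC00623*, *LINC01355*, *LINC02591* and *LINC00622*, all on chromosome 1. *LINC00623* went from 51.4 and 49.4 CPM to 80.8 and 78.9 CPM (log2 fold change 0.66). It was higher after IFNγ with the other two siRNAs as well, by 0.53 and 0.58, both just below the fold threshold. *LINC02591* was called with siNC (0.78) and siPDL1-1 (0.82) and had 0.43 with siPDL1-2, while *LINC01355* was at 0.75, 0.33 and -0.21 and *LINC00622* at 0.60, 0.33 and -0.00. The *LINC00622* call was lost without the second unstimulated or the second stimulated siNC library. *LINC00623* and *LINC02591* lie near the centromere of chromosome 1, a region known for recent duplications. Reads may match several copies there, and whether this affects the levels of these RNAs was not tested.

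The RNAs *LINC02783* and *LINC02762* fell with siNC and with siPDL1-1. *LINC02783* went from 16.2 and 13.3 CPM to 8.93 and 9.40 CPM in siNC cells and from 10.3 and 10.9 CPM to 6.55 and 5.65 CPM in siPDL1-1 cells (log2 fold changes -0.62 and -0.71). *LINC02762*, which starts 794 bp from *PTS*, a gene of tetrahydrobiopterin synthesis, had -0.59 and -0.66. The siNC call of *LINC02762* was lost without 3 of the 4 siNC libraries in turn, and that of *LINC02783* without the first unstimulated one, where it was -0.49. Over all alternatives *LINC02762* was between -0.77 and -0.45 with siNC, and its siPDL1-1 call was lost without 3 of the 4 libraries in turn (-0.81 to -0.51).

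Promoters were examined for the core of the GAS element, known from promoters of IFNγ target genes, TTCNNNGAA, which reads the same on both strands, for the core of the interferon-stimulated response element, GAAANNGAA or its complement TTCNNTTTC, and for the TATA box, TATAAA or its complement. RefSeq held start sites for 100 of the 155 RNAs (117 promoters of 250 bases before to 50 after the start) and for 12 of the 17 RNAs called in any IFNγ comparison. Of the 35116 promoters in RefSeq, 7.66% held the GAS core, 8.11% the response element core and 11.5% a TATA box, and of the 117 promoters 5.98%, 9.40% and 17.1% did. Among the 16 promoters of RNAs called with IFNγ these were 2, 2 and 6. A match describes the letters only. The promoters of *LINC01232* and of 2 further RNAs that rose in siNC cells are printed 5′ to 3′ because they hold a match to the GAS or the response element core, with every match, TATA boxes included, in capitals (GRCh38.p14).
LINC01232 promoter, chr13:99499257-99499556, minus strand: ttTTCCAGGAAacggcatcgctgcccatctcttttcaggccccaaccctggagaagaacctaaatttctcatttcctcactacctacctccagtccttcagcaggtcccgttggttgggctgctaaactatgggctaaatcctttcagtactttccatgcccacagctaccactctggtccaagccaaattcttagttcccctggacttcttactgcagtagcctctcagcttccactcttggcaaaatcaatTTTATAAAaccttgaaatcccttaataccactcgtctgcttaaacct
LINC01355 promoter, chr1:23285469-23285768, minus strand: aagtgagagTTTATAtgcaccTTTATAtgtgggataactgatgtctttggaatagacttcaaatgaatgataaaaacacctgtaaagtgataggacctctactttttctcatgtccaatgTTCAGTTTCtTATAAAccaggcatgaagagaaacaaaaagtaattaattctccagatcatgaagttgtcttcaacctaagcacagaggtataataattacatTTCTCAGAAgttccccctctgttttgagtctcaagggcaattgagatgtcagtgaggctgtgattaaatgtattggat
LINC00623 promoter, chr1:120912967-120913266, plus strand: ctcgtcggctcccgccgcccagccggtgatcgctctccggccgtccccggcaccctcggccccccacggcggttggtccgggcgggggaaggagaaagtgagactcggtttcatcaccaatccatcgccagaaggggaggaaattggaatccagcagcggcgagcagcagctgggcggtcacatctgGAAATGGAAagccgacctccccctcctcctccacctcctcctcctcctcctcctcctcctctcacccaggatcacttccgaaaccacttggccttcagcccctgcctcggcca

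In *LINC01232* the GAS core TTCCAGGAA began 248 bases before the start, and in *LINC01355* TTCTCAGAA began 28 bases before it, although the RefSeq start of *LINC01355* lies 1970 bases inside the gene of the table. In *LINC00623*, GAAATGGAA began 63 bases before the start. The matches to the TATA box letters in *LINC01232* began 3 and 5 bases after its start. Those in *LINC01355* began 241, 229 and 120 bases before its start.

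The same question was asked in cells with an siRNA against *PD-L1*. With siPDL1-1, 8 of the 155 were called, 4 higher and 4 lower, against 6.87% of all genes (1003 called higher and 233 lower). The additional RNAs were *LINC02861*, at 0.406 and 0.424 CPM without and 2.16 and 1.5995 CPM with IFNγ (log2 fold change 1.02), whose mean reached 1 CPM through the stimulated libraries (1.58 CPM against 0.715 CPM unstimulated), and *LINC01484*, at 1.97 and 1.81 CPM without and 0.993 and 0.7998 CPM with it (log2 fold change -0.61). The *LINC01484* call was lost when 3 of the 4 libraries were left out in turn, with log2 fold changes from -1.05 to -0.54 over all alternatives. *LINC02861* lies 2801 bp from *ADCY9*, an adenylate cyclase gene, whose log2 fold change was 0.45.

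With siPDL1-2, 8 of the 155 were called, 2 higher and 6 lower, against 5.27% of all genes (651 called higher and 296 lower). Beside *LINC00639*, those that fell were *LINC02798*, *LINC00511*, *LINC00641*, *LINC01119* and *LINC00472*. *LINC00511* had 83.1 and 80.6 CPM without and 47.0 and 46.1 CPM with IFNγ (log2 fold change -0.80, limma adjusted p = 4.77e-08). It was lower in siNC cells too, at 77.9 and 83.0 CPM without and 57.9 and 55.6 CPM with IFNγ, where its log2 fold change of -0.50 did not reach the fold threshold. *LINC00641* went from 15.8 and 14.99 CPM to 9.73 and 9.39 CPM. Without the first stimulated siPDL1-2 library the log2 fold change of *LINC00472* was -0.57 and its call was lost, and without the second so was that of *LINC01119*.

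Set side by side over the 155 RNAs, the log2 fold changes with siNC and with siPDL1-1 had a Pearson r of 0.763 across RNAs, those with siNC and siPDL1-2 one of 0.466, and those with siPDL1-1 and siPDL1-2 one of 0.527. By ranks (Spearman rho) the values were lower, at 0.656, 0.283 and 0.329. These are descriptions across RNAs, which are not replicates and of which some were chosen through the state in which they were high. The corresponding Pearson r over the 4020 genes with means from 1 to 10 CPM was 0.755, 0.475 and 0.593. Of the RNAs called, siNC and siPDL1-1 shared 6, which is 60.0% of the siNC and 75.0% of the siPDL1-1 calls, against 61.2% and 72.2% among all genes called. With siPDL1-2 in place of siPDL1-1 the number was 3, or 30.0% and 37.5%, against 38.4% and 59.1%.

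Long noncoding RNAs with other names, from a list of 45 of which 43 were tested, held members with larger changes. The list was picked by name with earlier results of these data known, so its larger changes are not independent of that choice. With siNC 4 rose and 2 fell, with siPDL1-1 4 rose and 3 fell, and with siPDL1-2 3 rose and 2 fell. Of all genes tested, 8.12%, 6.87% and 5.27% were called in these comparisons. *PSMB8-AS1*, antisense to an immunoproteasome gene, rose from a mean of 2.26 to 35.1 CPM in siNC cells (log2 fold change 3.48), *IRF1-AS1*, beside the transcription factor gene *IRF1*, from 4.21 to 31.9 CPM (2.66) and *HCP5*, in the HLA class I region, from 1.26 to 11.4 CPM (2.46). All of these were called with each siRNA. *DANCR*, a small nucleolar RNA host gene, fell from 124 to 64.4 CPM in siNC cells (log2 fold change -0.93) and was called lower with the other siRNAs too (-1.42 and -0.85). *PSMB8-AS1* and *IRF1-AS1* lie beside genes that IFNγ induces strongly.

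The next comparisons asked how the siRNAs against *PD-L1* change the RNAs. Both siRNAs were compared with the same siNC libraries, so their 2 sets of values are not independent. In unstimulated cells siPDL1-1 changed 7 of the 155, 3 higher and 4 lower, against 4.00% of all genes (459 called higher and 261 lower). With siPDL1-2 the number was 15, with 12 higher and 3 lower, which is 9.68% against 6.17% of all genes. After IFNγ, siPDL1-1 changed 7, 3 higher and 4 lower, against 5.52% of the 17148 genes tested (644 higher and 302 lower). For siPDL1-2 the number was 4, 2 higher and 2 lower, against 2.91% (309 higher and 190 lower). For siPDL1-1 unstimulated and siPDL1-2 after IFNγ, edgeR called more RNAs, as given in the section on the processing.

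*LINC02593* and *LINC00707* were called in all of these comparisons. *LINC02593*, a single-exon RNA at chr1:916865-921016 on the minus strand, was at 12.3 and 12.5 CPM in unstimulated siNC cells, at 24.7 and 24.0 CPM with siPDL1-1 and at 21.7 and 21.8 CPM with siPDL1-2. After IFNγ it was at 9.96 and 8.90 CPM with siNC, 20.6 and 17.4 CPM with siPDL1-1 and 18.2 and 20.6 CPM with siPDL1-2. Every siNC library was thus below every library of the siRNAs against *PD-L1*. The log2 fold changes were 0.92 and 0.76 without IFNγ (limma adjusted p = 2.12e-06 and 9.09e-06) and 0.93 and 0.97 with it (limma adjusted p = 0.000124 and 0.000295). Without the second stimulated siPDL1-2 library the last of these had an adjusted p of 0.0127 in limma and was not called. *AL645608.2*, an expressed gene 1917 bp away, was higher by 0.77 and 0.59 without IFNγ, both called, and by 0.69 and 0.60 with it, not called. The RefSeq start of *LINC02593* lies 1324 bases inside the gene of the table, and its promoter, shown because the RNA differed under each siRNA, held none of the 3 motifs.
LINC02593 promoter, chr1:919643-919942, minus strand: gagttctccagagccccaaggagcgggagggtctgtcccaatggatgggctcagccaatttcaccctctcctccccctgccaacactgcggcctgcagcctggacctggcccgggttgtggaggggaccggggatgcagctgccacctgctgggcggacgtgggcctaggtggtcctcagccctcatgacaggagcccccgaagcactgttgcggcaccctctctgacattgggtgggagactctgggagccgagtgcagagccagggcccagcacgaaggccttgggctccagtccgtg

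*LINC00707*, at chr10:6779549-6879450 on the plus strand and reported in several carcinomas, had the opposite order. It was at 10.3 and 11.8 CPM in unstimulated siNC cells, against 5.08 and 4.94 CPM with siPDL1-1 and 4.77 and 3.94 CPM with siPDL1-2. After IFNγ the values were 8.65 and 9.98 CPM, 4.23 and 4.38 CPM, and 3.75 and 3.77 CPM in the same order. No library of an siRNA against *PD-L1* reached the lowest siNC library. The log2 fold changes were -1.001 and -1.17 without IFNγ and -0.96 and -1.11 with it, and the largest of the 4 limma adjusted p values was 0.000165. Its nearest expressed gene, *LINP1*, a noncoding RNA that acts in DNA end joining, lies 39017 bp away and was called lower with siPDL1-1 in both states (-0.72 and -0.62) and not with siPDL1-2 (-0.36 and 0.10).

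**Figure D3:**
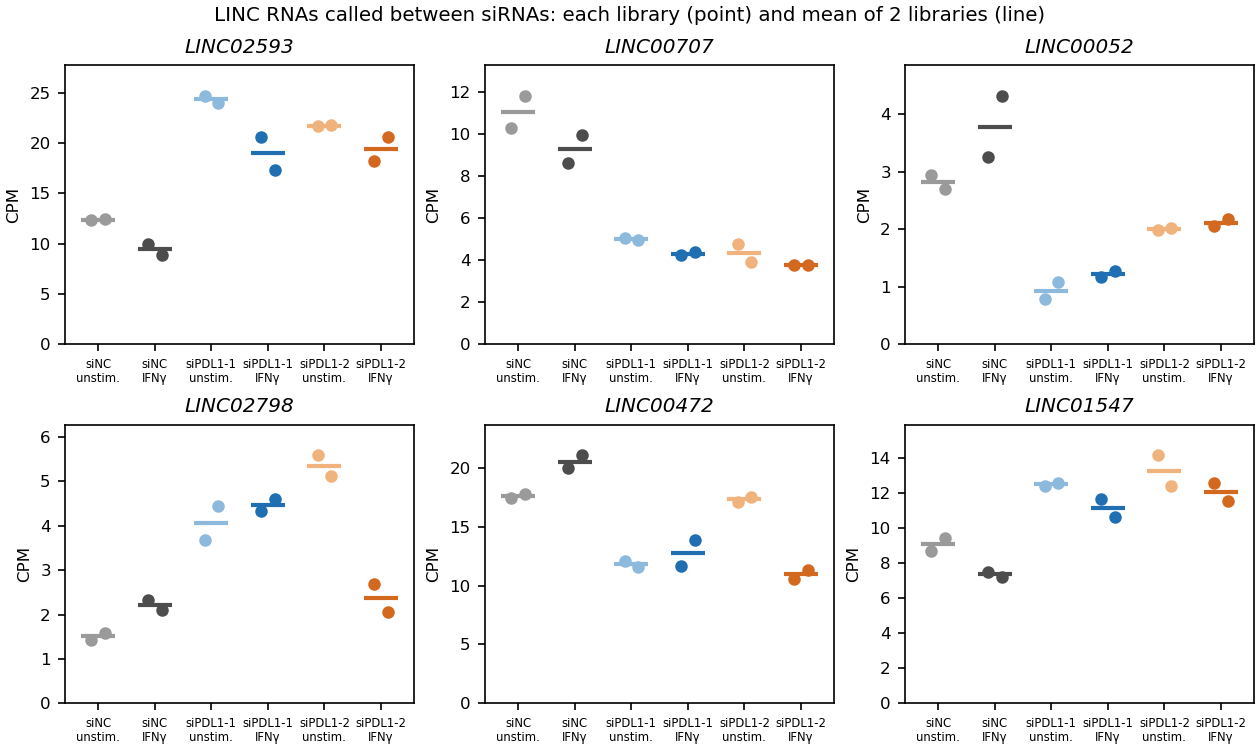
CPM of 6 LINC RNAs in each library (points), with the mean of the 2 libraries (lines), for the 6 conditions. *LINC02593* is higher and *LINC00707* lower in all libraries of both siRNAs against *PD-L1*, *LINC00052* is lowest with siPDL1-1, and *LINC02798* falls from 5.58 and 5.13 CPM to 2.70 and 2.05 CPM in siPDL1-2 cells.

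Some of the changes with siPDL1-1 were called in both states, which were measured on separate libraries. Besides *LINC02593* and *LINC00707* these were *LINC00052* and *LINC02798*, so that 4 of the 7 RNAs called without IFNγ were also among the 7 called with it, 57.1% of each list. Among all genes called with siPDL1-1 the shared ones were 60.8% of those without and 46.3% of those with IFNγ. *LINC00052*, at chr15:87576929-87579866 and studied in breast cancer, was at 2.94 and 2.71 CPM in unstimulated siNC cells and at 0.783 and 1.08 CPM with siPDL1-1, and after IFNγ at 3.26 and 4.32 CPM against 1.16 and 1.27 CPM (log2 fold changes -0.99 and -1.10). With siPDL1-2 it was at 1.99 and 2.01 CPM without and 2.05 and 2.18 CPM with IFNγ, between the other groups, and was not called. After IFNγ its log2 fold change with siPDL1-2 was -0.61, just short of a call (limma adjusted p = 0.0117). The difference between siPDL1-1 and siPDL1-2 was not called there either (log2 fold change -0.49, limma adjusted p = 0.0473). *LINC01551* was called only without IFNγ, at 11.5 and 10.2 CPM with siNC and 4.52 and 6.33 CPM with siPDL1-1. Its log2 fold changes were -0.89 without and -0.55 with IFNγ, and their difference was not called. *LINC00342* was higher with both siRNAs without IFNγ, at 12.2 and 11.7 CPM with siNC, 18.7 and 19.9 CPM with siPDL1-1 and 19.98 and 18.6 CPM with siPDL1-2. *LINC00973* was lower with siPDL1-1 (log2 fold change -0.72), and its call was lost without 3 of the 4 libraries in turn.

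The siPDL1-1 libraries also differed in lists of other genes. Of 16 type I interferon-response genes, 10 were higher without and 15 with IFNγ, and the summed level of the list was 113 and 112 CPM in unstimulated siPDL1-1 libraries against 63.8 and 63.4 CPM with siNC, and 4746 and 4695 CPM against 503 and 481 CPM after IFNγ. Of 10 G2/M genes, 5 were called lower without and 9 with IFNγ, and their sum was 1908 and 1900 CPM against 2791 and 2816 CPM without and 1539 and 1540 CPM against 2568 and 2604 CPM with IFNγ. With siPDL1-2 the interferon-response sums were 57.8 and 56.6 CPM without and 514 and 532 CPM with IFNγ, against the siNC sums above. The G2/M sums with siPDL1-2 were lower than with siNC too, at 2164 and 2131 CPM without and 1888 and 1807 CPM with IFNγ, with median log2 fold changes of -0.44 and -0.45, although 1 gene without and 2 with IFNγ were called. The part of these differences in the results for the LINC RNAs was not tested.

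With siPDL1-2 in unstimulated cells 12 of the 15 called RNAs were higher, and of all genes called 870 were higher and 240 lower. *LINC02798*, at chr1:121396754-121463508, had the largest difference, from 1.42 and 1.59 CPM with siNC to 5.58 and 5.13 CPM (log2 fold change 1.34 ± 0.12 SE, limma adjusted p = 1.29e-06). *LINC01963*, 10742 bp from the DNA repair gene *XRCC5*, went from 2.20 and 2.83 CPM to 5.73 and 6.01 CPM (0.97), and *LINC01322* from 1.32 and 1.19 CPM to 3.04 and 3.601 CPM (0.94). The *LINC01322* call was lost when any of the 4 libraries was left out. *LINC00662*, the most abundant of the 12, was at 47.5 and 44.8 CPM with siNC and at 70.2 and 75.7 CPM with siPDL1-2 (0.65). The others were *LINC02593*, *LINC01355*, *LINC01505*, *LINC01410*, *LINC01719*, *LINC00342*, *LINC01341* and *LINC02591*, with log2 fold changes from 0.60 to 0.76. The *LINC02591* call was lost without the first siNC or the second siPDL1-2 library (0.56 and 0.53), and that of *LINC01341* without the first siPDL1-2 library (0.54). The call of *LINC01410* was lost without the second siPDL1-2 library, and that of *LINC01505* without the first siNC or either siPDL1-2 library. The mean of *LINC01341* reached 1 CPM through libraries with an siRNA against *PD-L1*, its siNC means being 0.635 CPM without and 0.551 CPM with IFNγ. Those lower were *LINC00707*, *LINC02381*, which overlaps *SMUG1* on the opposite strand (log2 fold change -0.70), and *LINC00294*, a single-exon RNA that shares 263 exonic bases with *CSTF3* (-0.62), whose call was lost without the first unstimulated siNC library (-0.53). *TCP11L1* overlaps *LINC00294* over 3306 bp on the same strand, with 0 exonic bases shared. In unstimulated cells the means of *TCP11L1* were 32.7 CPM with siNC and 23.6 CPM with siPDL1-2. Those of *CSTF3* were 55.3 and 62.9 CPM.

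**Figure D4:**
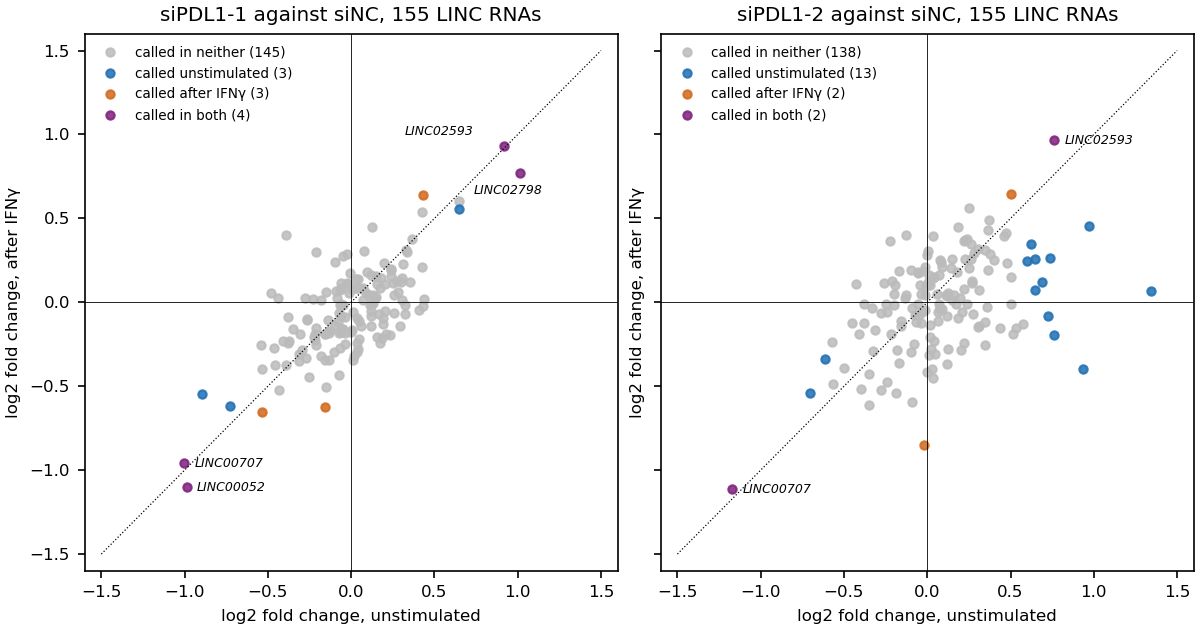
Log2 fold changes of the 155 LINC RNAs for siPDL1-1 (left) and siPDL1-2 (right) against siNC, without IFNγ (x axis) and after it (y axis), with the diagonal dotted and called RNAs coloured. With siPDL1-2, 13 RNAs were called without IFNγ only; because a large unstimulated effect chose them, a smaller effect on the y axis is in part set by that choice.

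After IFNγ the RNAs changed by siPDL1-2 were *LINC02593*, *LINC00707*, *LINC00472* and *LINC01547*. *LINC00472*, studied as a tumour suppressor in breast cancer, was at 20.02 and 21.0 CPM with siNC and at 10.6 and 11.3 CPM with siPDL1-2, and at 11.7 and 13.8 CPM with siPDL1-1 (log2 fold changes -0.85 and -0.65). The siPDL1-1 call was lost without the first siPDL1-1 library (-0.54). *LINC01547* was at 7.53 and 7.201 CPM with siNC and 12.6 and 11.5 CPM with siPDL1-2 (0.64). Leaving out either siPDL1-2 library after IFNγ left 2 of these 4 calls, *LINC01547* being lost both times. With siPDL1-1 *LINC00115* (-0.63) and *LINC01341* (0.64) were also called, and each lost its call without any 1 of the 4 libraries. As above, the difference of *LINC01341* is not independent of its selection.

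Over the 155 RNAs, the effects of siPDL1-1 without and with IFNγ had a Pearson r of 0.724 across RNAs, and those of siPDL1-2 one of 0.481. By ranks (Spearman rho) the values were 0.601 and 0.433. Over the 4019 genes with means from 1 to 10 CPM the Pearson r was 0.547 and 0.142. Of the 15 RNAs called with siPDL1-2 without IFNγ, 2 were among the 4 called with it, 13.3% and 50% of the lists, against 13.5% and 30.1% among all genes called. The 12 higher RNAs had a median log2 fold change of 0.73 without IFNγ, which selected them, and of 0.18 with it.

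Whether the effect of an siRNA differed between the states was tested directly, as the effect after IFNγ minus the unstimulated effect. This is also the difference of the IFNγ response between that siRNA and siNC. For siPDL1-1 limma called 0 of the 155, against 0.968% of all genes, with 21 at an unadjusted p under 0.05, and edgeR and DESeq2 called 0 as well. For siPDL1-2 limma called 8, all with a negative difference, against 7.62% of all genes, of which 1040 had a negative and 330 a positive difference. For siPDL1-1 these 8 RNAs had negative differences too, from -0.42 for *LINC01355* to -0.12 for *LINC00472*, none of them called. Both sets of differences subtract the same siNC libraries, so they are not independent. The 8 siPDL1-2 calls became 4 without the second unstimulated or the second stimulated siPDL1-2 library, and 5 without the second stimulated siNC library. Each of the other libraries of this comparison, when left out, also ended some of these calls, as given below by RNA.

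The largest of these were *LINC01322* (-1.34 ± 0.30 SE, limma adjusted p = 0.005) and *LINC02798* (-1.28 ± 0.18 SE, limma adjusted p = 0.000156). That of *LINC01322* was lost without 6 of the 8 libraries in turn. In siNC cells *LINC02798* was at 1.42 and 1.59 CPM without and 2.32 and 2.10 CPM with IFNγ, and in siPDL1-2 cells at 5.58 and 5.13 CPM without and 2.70 and 2.05 CPM with it. The 2 siRNAs also differed from each other in this RNA after IFNγ, where siPDL1-1 cells had 4.34 and 4.61 CPM. It was the 1 RNA called between them, against 2.11% of all genes (log2 fold change 0.71, limma adjusted p = 0.00745), and the call was lost without any 1 of the 4 libraries. *LINC02798* lies 3880 bp from *SRGAP2C*, a gene in the duplicated part of chromosome 1, whose own difference for siPDL1-2 was -0.50.

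*LINC01355* rose with IFNγ in siNC cells, from 9.55 and 9.36 CPM to 16.4 and 16.6 CPM, and was at 15.1 and 18.5 CPM before and 14.2 and 14.4 CPM after IFNγ in siPDL1-2 cells (difference -0.96, limma adjusted p = 0.000121). *LINC00472* had 17.4 and 17.8 CPM before and 20.02 and 21.0 CPM after IFNγ with siNC, and 17.1 and 17.5 CPM before and 10.6 and 11.3 CPM after it with siPDL1-2 (-0.83). For both RNAs the difference between siPDL1-2 and siNC was called in 1 state: *LINC01355* before IFNγ and *LINC00472* after it. After IFNγ *LINC01355* was lower with siPDL1-2 without being called (log2 fold change -0.19, limma adjusted p = 0.135). *OGFRL1*, 34368 bp from *LINC00472*, had a difference of -1.01, and its means with siPDL1-2 were 165 CPM before and 88.0 CPM after IFNγ, against 95.6 and 103 CPM with siNC. *MEF2C*, beside *LINC00461* (-0.71), had -0.88. The remaining RNAs were *LINC01410* (-0.81), *LINC01409* (-0.71) and *LINC00622* (-0.60). Leaving out libraries in turn, the call of *LINC01410* was lost without 4 of the 8, and those of *LINC01409* and *LINC00622* each without 7 of the 8. With the replicate number as a block the call of *LINC00622* was lost too.

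**Figure D5:**
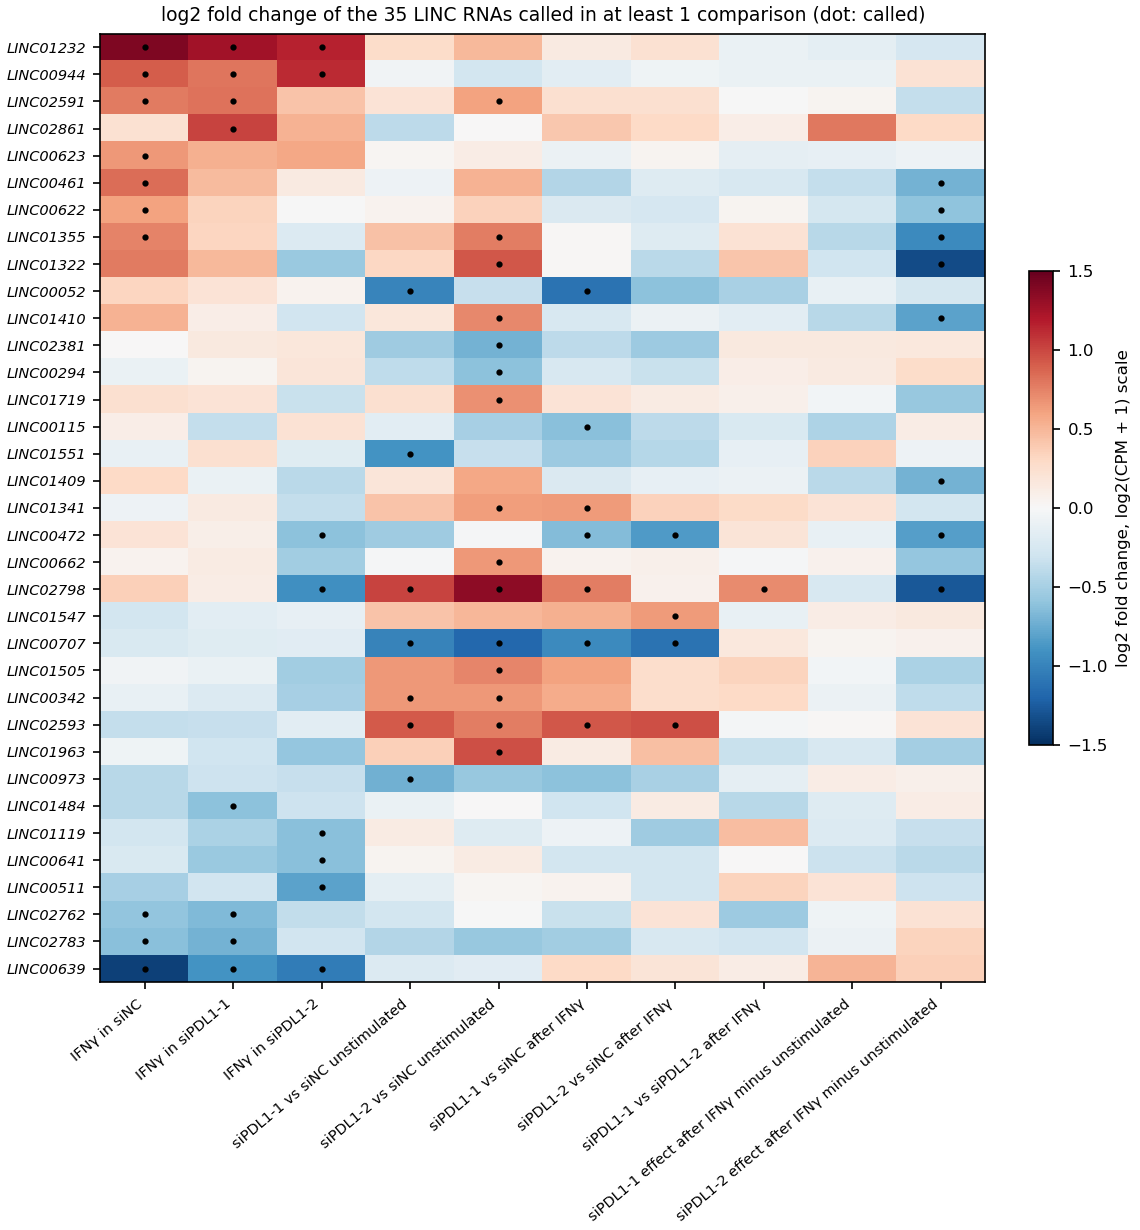
Log2 fold changes on the log2(CPM + 1) scale of the 35 LINC RNAs called in at least 1 of 10 comparisons (columns), in the order of their mean IFNγ effect; a dot marks a call. *LINC01232*, *LINC00944* and *LINC00639* carry dots in all 3 IFNγ columns, and *LINC02593* and *LINC00707* in the 4 columns that compare an siRNA with siNC.

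Genes beside the called RNAs were mostly not called with them. In siNC cells with IFNγ the nearest expressed gene was called for 1 of the 10 called RNAs and for 16 of the 145 others, and it had the same sign for 7 of the 10. With siPDL1-2 against siNC in unstimulated cells it was called for 1 of 15 and 6 of 140. The shares were further apart for siPDL1-1 in unstimulated cells, with 2 of 7 and 3 of 148, for siPDL1-1 after IFNγ, with 1 of 7 and 7 of 148, and for the difference of the siPDL1-2 effect, with 2 of 8 and 10 of 147. With IFNγ the nearest expressed gene was called for 0 of 8 and 14 of 147 in siPDL1-1 cells. In siPDL1-2 cells with IFNγ it was called for 1 of 8 and 9 of 147. For siPDL1-2 against siNC after IFNγ the numbers were 0 of 4 and 2 of 151, and between the siRNAs 0 of 1 and 5 of 154. Of the RNAs called in no comparison, *LINC00884*, renamed *ATP13A3-DT*, had the largest ratio of highest to lowest condition mean. It was at 0.712 and 0.726 CPM in stimulated siNC cells and at 2.08 and 1.83 CPM in unstimulated siPDL1-2 cells, and its log2 fold changes with IFNγ were -0.48, -0.34 and -0.47. It shares 427 exonic bases with *ATP13A3*, on the opposite strand at a mean of 196 CPM.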

How the data were processed

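RNA-seq of U251 cells was analysed in 12 libraries, 2 for each of 6 conditions taken from the sample labels. According to the study's methods, CLC Genomics Workbench served the authors for read trimming, alignment to the human genome (GRCh38, Ensembl genes), counting without regard to strand, and normalization. The deposited signal values are these normalized CPM, 1 column per library, and 100% were whole multiples of 1 read within a tolerance of 0.1, so the reads were recovered. They sum to 965168 to 1042316 per library, and so are not scaled to the total alone.

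The 155 RNAs and the gene lists were chosen with earlier results of these data known. Because the values are normalized, limma (3.58.1, R 4.3.3) with trend and robust estimates was fitted to log2(CPM + 1) for genes that passed filterByExpr, run on the reads with a minimum count of 10 and a minimum total of 15. The 12 libraries were fitted as 6 groups, and the IFNγ-stimulated libraries as 3 groups for comparisons after IFNγ. Calls needed a Benjamini-Hochberg adjusted p under 0.01 over all genes and a fold change over 1.5. RNAs named are the 5 most abundant, those beside the threshold, the called RNAs with the largest changes whose libraries did not overlap between groups, those called in all 3 IFNγ comparisons, the uncalled RNA with the largest ratio of condition means, and genes beside them. *LINC00662*, *LINC00622*, *LINC01409*, *LINC01410*, *LINC01119*, *LINC01184*, *LINC01505*, *LINC01719* and *LINC02085* were named after their values were seen.

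Alternatives were edgeR 4.0.16 and DESeq2 1.42.0 on the recovered reads, DESeq2's size factors, a pseudocount of 0.1, no filter, the replicate number as a block, leaving out each library, and other thresholds. The fits were also run on simulated data, and the outcome is not reported here. Replicates were checked for duplication, with a mean chi-square of 1.85 to 7.76 between the reads of a pair. Annotation was GENCODE version 44. Python 3.11.15, pandas 2.3.3, numpy 2.4.6 and matplotlib 3.10.9 were used. Some genes of the marker lists and beside the RNAs are not reported here.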

Additional observations from a re-analysis of the deposited data

Results flagged for a closer look

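For 8 RNAs the IFNγ response differed between siPDL1-2 and siNC cells by a test of the difference itself in the limma fit over all genes. They are 5.16% of the 155, against 7.62% of all genes, of which 1040 had a negative and 330 a positive difference. The differences on the log2 scale were -1.34 for *LINC01322*, -1.28 for *LINC02798*, -0.96 for *LINC01355*, -0.83 for *LINC00472*, -0.81 for *LINC01410*, -0.71 for *LINC00461*, -0.71 for *LINC01409* and -0.60 for *LINC00622*, and the largest limma adjusted p was 0.00842. The same RNAs had smaller negative differences with siPDL1-1, from -0.42 to -0.12, none of them called, and measured against the same siNC libraries. The siPDL1-2 differences of *LINC01322*, *LINC01410*, *LINC01409* and *LINC00622* were the least certain, with limma adjusted p of 0.005, 0.00323, 0.00731 and 0.00842. Their calls were lost in 8, 5, 10 and 11 of 14 alternatives, in that order, and each was lost with no filter. *LINC02798* also differed between siPDL1-1 and siPDL1-2 after IFNγ, by 0.71 (limma adjusted p = 0.00745), a call that was lost in 8 of 11 alternatives, among them leaving out any 1 of the 4 libraries, with adjusted p up to 0.0742.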

How the results depend on the processing

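Of the 68 calls of the 35 RNAs, 43 were kept under every alternative run and 0 changed direction. By setting, DESeq2's Wald test kept 59, no filter 60, and edgeR 67 of the 68. The labels do not tie replicate numbers to the 2 experiments, and deviations from the condition means of same-numbered libraries correlated between -0.132 and 0.194, so the numbers were not used to pair libraries. With the replicate block 66 of the calls were kept, and the number of RNAs called between siPDL1-1 and siPDL1-2 after IFNγ went from 1 to 0, as it did with a pseudocount of 0.1, no filter, DESeq2's Wald test and without any 1 of the 4 stimulated siPDL1-1 and siPDL1-2 libraries. The other call lost with the block was the difference of the siPDL1-2 effect in *LINC00622*. A pseudocount of 0.1 and edgeR each called 16 RNAs with IFNγ in siNC cells in place of 10, and edgeR called 12 in place of 7 for siPDL1-1 unstimulated and 7 in place of 4 for siPDL1-2 after IFNγ. For the difference of the siPDL1-2 effect between states, no filter called 4 and DESeq2 5 in place of 8. The shares of all genes called under these settings are not given here. These numbers therefore cannot be set against the shares of all genes from the limma fit. At an adjusted p under 0.05 with no fold threshold the numbers were 41, 35 and 34 for IFNγ with siNC, siPDL1-1 and siPDL1-2, 36 and 53 for the siRNAs unstimulated, 23 and 26 after IFNγ, 15 between the siRNAs, and 1 and 26 for the differences between states. These are 26.5%, 22.6%, 21.9%, 23.2%, 34.2%, 14.8%, 16.8%, 9.68%, 0.645% and 16.8% of the 155 in that order, against 38.3%, 33.9%, 28.9%, 28.9%, 40.8%, 28.0%, 21.9%, 11.3%, 3.18% and 29.6% of all genes. Leaving out 1 library of a comparison at a time gave 9 to 11, 7 to 10 and 7 to 9 for IFNγ, 6 to 7 and 12 to 18 for the siRNAs unstimulated, 6 to 7 and 2 to 6 after IFNγ, 0 to 0 between the siRNAs, and 0 to 0 and 4 to 8 for the differences. The cause of these changes was not tested. Without the 29 RNAs that share their region with a gene of higher level, 126 remain.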

Other observations

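*LINC02085*, renamed *RDUR*, had 0 reads in the first siPDL1-2 library after IFNγ, the shallowest library, where 3 reads would correspond to 0.176 CPM, and 1.26 CPM in the second. It was at 0.730 and 1.97 CPM in stimulated siNC cells. *AC106712.1*, a gene on the same strand, shares 1884 of its exonic bases, so reads may be assigned to either. The summed CPM of the 155 RNAs was 1613 and 1620 in unstimulated siPDL1-2 cells and between 1405 and 1519 in the other 10 libraries.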
